A study of Mus musculus with 12 samples.

Results

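The genes described here are 40 genes of ribosome biogenesis and Myc action, chosen by name, of which 38 could be measured among the 19938 genes of the array. Each was read from the probe set annotated to its symbol, and from the brightest where a gene had several. Noc2l had no probe set in the annotation used here, and the only probe set of Ppan is annotated to a further gene as well, so neither has values. The remaining members are the transcription factors Myc and Mycn, 8 proteins of the box H/ACA and box C/D small nucleolar ribonucleoprotein particles (snoRNPs), 7 nucleolar phosphoproteins and chaperones, 3 parts of RNA polymerase I and its initiation factors, 9 proteins of the small subunit processome and its maturation, 7 of large subunit assembly and 2 nucleolar helicases.

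Ribosomes are built in the nucleolus, where RNA polymerase I transcribes the precursor of the ribosomal RNAs. Guide RNAs in snoRNPs then direct its modification and folding, and assembly factors and helicases cut it and load it with ribosomal proteins. Myc proteins bind E-box sequences as dimers with Max and are known to activate many of the genes for this machinery, and mouse embryonic stem cells, which divide fast, are known for high Myc activity.

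The samples were mouse R1 embryonic stem cells with a knockdown of Set, which encodes a histone chaperone and inhibitor of the phosphatase PP2A, or with a scrambled control. The knockdown lines KD1 and KD2 and the scrambled control were each sampled in 2 conditions with 2 arrays apiece, which gave 6 groups and 12 arrays. RA cells had been kept for 4 days in medium with 1 µM retinoic acid and 10% serum that lacked leukemia inhibitory factor (LIF), and ESC cells were growing stem cells in 15% serum with 1000 U/ml LIF. Retinoic acid, serum and LIF all change between the 2 conditions and cannot be told apart. The labels call the knockdown and control cells clones, each knockdown is 1 line and the control is another, so a difference between lines cannot be told apart from the knockdown. The titles call the 2 arrays of a group biological replicates, but separate cultures are not named. The p-values therefore cover only the variation among arrays of a line, and how much of it is technical is not stated.

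Set, the targeted gene, was read by a bright probe set that it shares with BC085271. It gave 11.28 and 11.16 log2 units in RA KD1, 11.70 and 11.99 in the arrays labelled RA KD2 and 12.27 and 12.29 in RA scrambled cells. In ESC cells it gave 12.13 and 11.94 in KD1, 12.15 and 11.87 in the arrays labelled KD2 and 12.93 and 12.71 in scrambled cells. On this probe set, and on a second one shared with the same gene, every knockdown array was lower than the scrambled arrays of its labelled state. The 2 probe sets annotated to Set alone were dim and did not show this order. The brighter of them gave 6.61 and 6.72 in RA KD1 and 6.79 and 7.91 under the RA KD2 label, against 6.68 and 6.45 in RA scrambled cells. In ESC cells it gave 8.12 and 7.90 in KD1 and 8.54 and 6.91 under the KD2 label, against 8.82 and 8.39 in scrambled cells. The other gave 6.04 to 7.05 in the RA knockdown arrays, against 5.83 and 6.09 in RA scrambled cells, and 6.22 to 7.15 in the ESC knockdown arrays, against 7.35 and 6.90 in ESC scrambled cells. The lower Set signal therefore rests on the probe sets shared with BC085271. Values throughout are log2 units as deposited, differences are differences of log2 values, and a member was called where limma gave an adjusted p below 0.05 over all 19938 genes. Array medians lay between 7.17 and 7.24.

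Myc binds the E-box CACGTG, and this motif was looked up in the promoters of the members, from 250 bases before to 50 bases after the gene start in RefSeq (GRCm38.p6). CACGTG, which reads the same on both strands, was present in 8 of the 35 members with a promoter sequence (22.9%), of which 33 were measured, against 1483 of 15614 array genes with a promoter (9.5%). The 8 were Grwd1, Imp4, Mybbp1a, Nop2, Pes1, Rrn3, Utp20 and Wdr43. The related CACGCG, searched on both strands as CACGCG and CGCGTG, was present in 10 of the 35 (28.6%), against 2331 of the 15614 array genes (14.9%). Rrn3, which encodes the initiation factor that brings RNA polymerase I to the ribosomal DNA, was the member with 2 copies, at positions -215 and -48 from its start, and its 250 upstream bases are shown for that reason. Short windows around the E-box are shown for a methyltransferase (Nop2), a U3 snoRNP protein (Imp4), a large subunit assembly factor (Pes1) and a processome protein (Wdr43), where it begins at positions -60, -121, 3 and 18. Capitals mark CACGTG, and each sequence reads in the direction of its gene, with its strand in brackets. A match describes these letters and does not show binding, which was not measured here.
Rrn3, chr16:13780449-13780698 (+): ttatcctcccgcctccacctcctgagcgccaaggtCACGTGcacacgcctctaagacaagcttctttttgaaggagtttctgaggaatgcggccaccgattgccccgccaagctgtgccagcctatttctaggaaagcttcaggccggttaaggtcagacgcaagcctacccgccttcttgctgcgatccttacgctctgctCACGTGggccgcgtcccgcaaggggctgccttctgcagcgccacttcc
Nop2, chr6:125131813-125131838 (+): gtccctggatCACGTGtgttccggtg
Imp4, chr1:34439698-34439723 (+): ggtcttagacCACGTGacatcccaaa
Pes1, chr11:3963967-3963992 (+): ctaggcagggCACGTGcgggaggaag
Wdr43, chr17:71616222-71616247 (+): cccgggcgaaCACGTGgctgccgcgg

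Before the members' values, the state of 2 arrays has to be given. The arrays labelled RA KD2 replicate 2 and ESC KD2 replicate 2 correlated with the arrays of their own labelled state at a mean Pearson's r of 0.952 each over all genes, and with those of the other state at 0.986 each. The other 10 arrays lay between 0.979 and 0.984 with their own state and between 0.944 and 0.959 with the other. The median of 12 naive pluripotency markers was 11.85 log2 units in RA KD2 replicate 2, against 8.45 to 9.38 in the other RA arrays, and 9.42 in ESC KD2 replicate 2, against 11.43 to 12.01 in the other ESC arrays. The median of 11 retinoic acid and Hox markers was 6.80 in RA KD2 replicate 2, against 10.99 to 11.40 in the other RA arrays. It was 11.28 in ESC KD2 replicate 2, against 6.43 to 6.81 in the other ESC arrays. Both go against their labels and are called displaced here. The replicate differences of RA KD2 and ESC KD2 correlated at -0.864 over all genes. Whether the 2 labels were exchanged was not tested, and the KD2 values and 12-array fits follow the labels as given. The fit by the labels keeps all 12 arrays, and every result is also given from a fit of the other 10, where KD2 is 1 array per state whose spread is taken from the rest.

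The ribosome biogenesis genes were lower together in RA than in ESC cells. Over the 38 members, the median difference between RA and ESC was -0.89 log2 units in scrambled cells and -0.70 in KD1, while the median of all genes was -0.04 and -0.08. In the fit of 12 arrays, 13 of 38 members fell in scrambled cells and none rose, where 5.66% of all genes fell. Those 13 were Ddx18, Dkc1, Gnl3, Heatr1, Ncl, Noc3l, Noc4l, Nolc1, Nop10, Nop58, Pes1, Polr1b and Tcof1. At an unadjusted p below 0.05, 34 of the 38 differed, as did 38.4% of all genes. In KD1, Myc and Dkc1 fell, where 4.26% of all genes did, and in KD2 no member was called by limma, where 0.0% of all genes were. At an unadjusted p below 0.05, 0 members and 1.73% of all genes differed in KD2, whose arrays of each state include a displaced one.

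Without the 2 displaced arrays, 36 of 38 members fell in scrambled cells, where 20.8% of all genes fell, and 35 of 38 fell in KD1, where 20.8% did. In KD2, with 1 array per state, 28 of 38 members fell, where 9.46% of all genes did, and the median over members was -0.78. None rose in any line, where 21.8% of all genes rose in scrambled cells, 20.3% in KD1 and 11.0% in KD2. All 13 members that fell in the fit of 12 arrays were among the 36, and 26 members fell in all 3 lines. The exceptions were Myc and Nop16 in scrambled cells and Mycn, Imp4 and Nop16 in KD1. In KD2, Myc, Nop56, Fbl, Npm1, Gnl3, Utp20, Bysl, Rcl1, Nop2 and Nop16 were not called. The RA and ESC arrays did not overlap for 37 of 38 members in scrambled cells (all but Myc) and for 37 of 38 in KD1 (all but Nop16), with RA lower, and 37.3% and 44.0% of all genes were lower without overlap in these lines. The 8 members with CACGTG had RA minus ESC differences between -1.03 (Grwd1) and -0.54 (Imp4) in scrambled cells, with a median of -0.79. The 25 other measured members with a promoter sequence lay between -1.59 (Rrp9) and -0.34 (Nop16), with a median of -0.95. Whether these medians differ was not tested. The promoters of Myc, Fbl, Npm1, Tcof1 and Bop1 were not searched. The comparisons of the 3 lines use separate arrays, but the fits pool their spread.

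The calls of the fit of 12 arrays depended on single arrays, for the members as for all genes. The 13 calls in scrambled cells were lost without any of the 8 scrambled or KD1 arrays. The share of all genes called lower was then also far below its 5.66% over 12 arrays. Without a KD2 array more members were called lower, and more of all genes. The median over members in scrambled cells stayed between -1.02 and -0.75 in these fits. Over 10 arrays, each of the 8 scrambled or KD1 arrays was left out in turn, and the remaining KD2 arrays were not. The median over members in scrambled cells then lay between -1.02 and -0.75. For KD1 the 2 calls over 12 arrays likewise became fewer without a scrambled or KD1 array and more without a KD2 array, as did those of all genes. With the same arrays left out of the 10, the KD1 median lay between -0.77 and -0.61, and the KD2 median stayed at -0.78. In bulk RNA, a smaller number of cells of a type and less RNA per cell cannot be told apart.

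**Figure D1:**
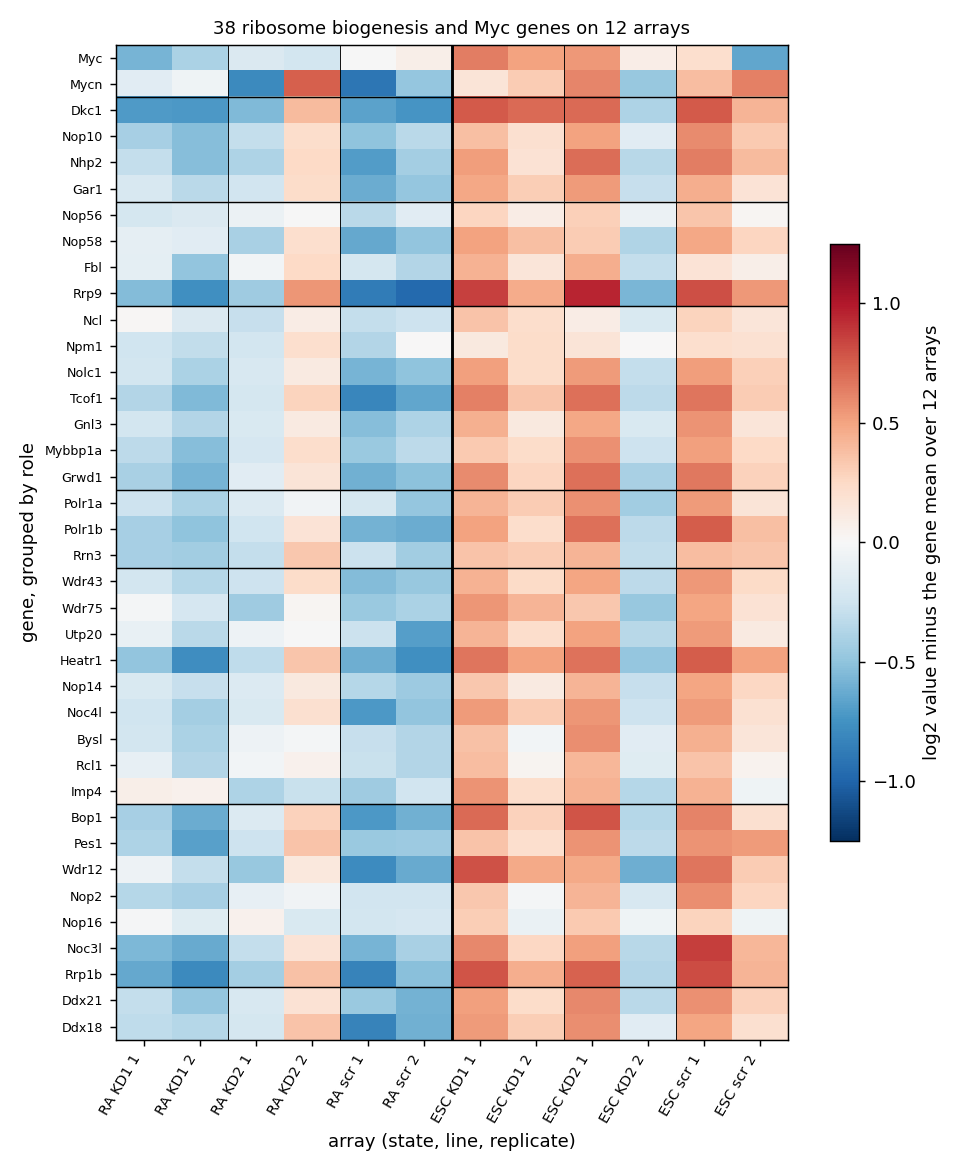
Log2 value of each of the 38 members minus its mean over 12 arrays, with genes in rows grouped by role and arrays in columns, RA left of the thick line and ESC right of it. The RA columns are mostly blue and the ESC columns mostly red. RA KD2 2 and ESC KD2 2 take the colours of the other side, with member medians of 11.47 and 10.95 log2 units.

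Over 10 arrays, Mycn was called lower in RA in scrambled cells and Myc in KD1, and in KD2 both were lower in RA. Mycn read 10.93 and 11.02 in the RA KD1 arrays, 10.28 in RA KD2 replicate 1 and 10.17 and 10.59 in the RA scrambled arrays, against 11.23 and 11.39 in ESC KD1, 11.68 in ESC KD2 replicate 1 and 11.46 and 11.70 in ESC scrambled cells. On the displaced arrays it was 11.82 under the label RA KD2 replicate 2 and 10.60 under the label ESC KD2 replicate 2. Outside the displaced arrays, RA was thus lower than ESC in every line, with the RA KD1 arrays closest to ESC. Over 10 arrays Mycn, the family member that predominates in many embryonic tissues, fell by 1.20 log2 units in scrambled cells (SE 0.15, adjusted p = 0.000189), to 43.5% of the ESC signal, and by 1.40 in KD2 (adjusted p = 0.0022). In KD1 the difference was -0.34 (SE 0.15, adjusted p = 0.0994) and was not called. Over 12 arrays it was not called in scrambled cells either (adjusted p = 0.101).

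Values of Myc were 10.74 and 10.93 (RA KD1), 11.14 (RA KD2 replicate 1) and 11.32 and 11.40 (RA scrambled), against 11.96 and 11.83 (ESC KD1), 11.87 (ESC KD2 replicate 1) and 11.53 and 10.67 (ESC scrambled). The displaced arrays gave 11.09 under the label RA KD2 replicate 2 and 11.41 under the label ESC KD2 replicate 2. The ESC scrambled arrays differed from each other by more than the ESC KD1 arrays did, and the RA scrambled values lay between them. RA was lower than ESC in KD1 without overlap, by 1.06 log2 units (SE 0.26, adjusted p = 0.037 over 12 arrays and 0.00468 over 10), which left 47.9% of the ESC signal. In scrambled cells the difference was 0.26 (SE 0.22, adjusted p = 0.397) over 10 arrays, and in KD2 -0.73 (SE 0.32, adjusted p = 0.149). The interaction is the RA minus ESC difference of the mean of both knockdown lines less that of scrambled cells. For Mycn it was 0.33 over 10 arrays and 0.99 over 12, and was not called in either fit. For Myc the interaction was -1.16 (SE 0.30, adjusted p = 0.102) over 10 arrays and was not called. Over 10 arrays it was -1.59 without ESC scrambled replicate 1 and -0.73 without ESC scrambled replicate 2. Either omission leaves 1 ESC scrambled array and takes the spread of that pair out of the fit, so no p-value is given.

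**Figure D2:**
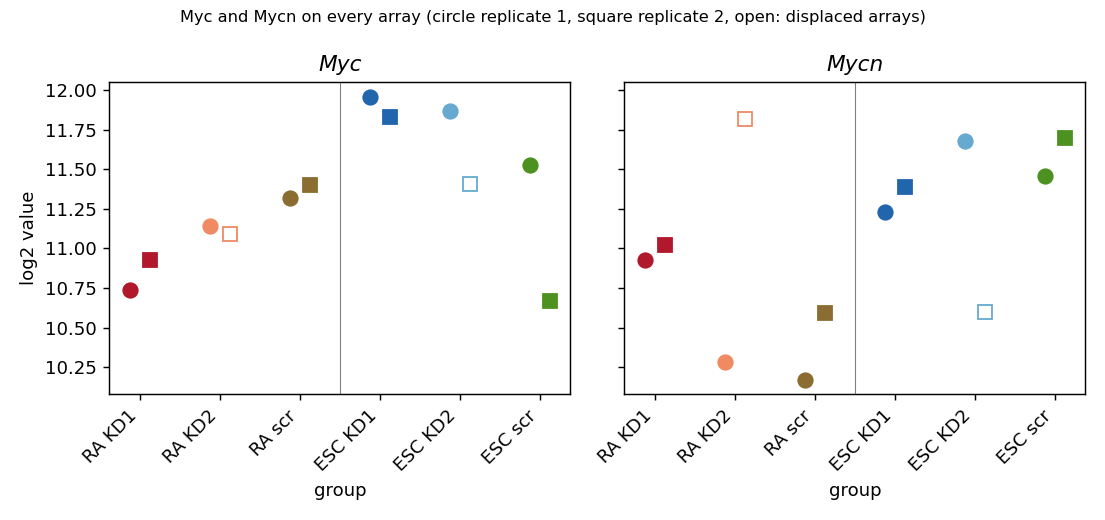
Log2 value of Myc (left) and Mycn (right) on every array by group, with RA groups left of the grey line and ESC groups right of it. Circles are replicate 1, squares replicate 2, and open squares the 2 displaced arrays. Myc in ESC scrambled cells spans 10.67 to 11.53, and Mycn in RA KD1 cells lies at 10.93 and 11.02, above the RA scrambled arrays at 10.17 and 10.59.

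The 4 box H/ACA snoRNP proteins, which carry out pseudouridylation of ribosomal RNA, all fell in each of the 3 lines over 10 arrays. Dkc1 read 10.53 and 10.52 in the RA KD1 arrays, 10.69 in RA KD2 replicate 1 and 10.57 and 10.50 in the RA scrambled arrays, against 12 and 11.95 in ESC KD1, 11.95 in ESC KD2 replicate 1 and 12 and 11.66 in ESC scrambled cells. Dkc1, the pseudouridine synthase of the particle and also a part of telomerase, was lower in every non-displaced RA array than in every such ESC array, and the displaced ones read 11.63 under the label RA KD2 replicate 2 and 10.85 under the label ESC KD2 replicate 2. Its RA minus ESC difference over 10 arrays was -1.45 (SE 0.11, adjusted p = 1.56e-05) in KD1, -1.26 in KD2 and -1.30 (SE 0.11, adjusted p = 2.86e-05) in scrambled cells. Over 12 arrays Dkc1 passed in KD1 (adjusted p = 0.041) and in scrambled cells (adjusted p = 0.0487).

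Nhp2 stood at 10.88 and 10.64 in RA KD1, at 10.79 in RA KD2 replicate 1 and at 10.48 and 10.75 in RA scrambled cells, against 11.70 and 11.36, 11.87 and 11.82 and 11.57 in the ESC arrays of KD1, KD2 replicate 1 and scrambled cells. Nhp2, an RNA-binding core protein of the particle, differed by -0.77 in KD1, -1.09 in KD2 and -1.08 in scrambled cells. Values of Nop10 were 11.50 and 11.39 (RA KD1), 11.62 (RA KD2 replicate 1) and 11.42 and 11.58 (RA scrambled), against 12.29 and 12.12 (ESC KD1), 12.42 (ESC KD2 replicate 1) and 12.51 and 12.25 (ESC scrambled). Nop10, the small protein that joins the synthase to the rest, differed by -0.76 in KD1, -0.80 in KD2 and -0.88 in scrambled cells. Gar1 read 10.71 and 10.57 in the RA KD1 arrays, 10.67 in RA KD2 replicate 1 and 10.29 and 10.43 in the RA scrambled arrays, against 11.39 and 11.22 in ESC KD1, 11.44 in ESC KD2 replicate 1 and 11.36 and 11.08 in ESC scrambled cells. Gar1, which assists substrate turnover, differed by -0.67 in KD1, -0.77 in KD2 and -0.86 in scrambled cells. None of these overlapped between the states outside the displaced arrays, which read 11.42 under the label RA KD2 replicate 2 and 10.83 under the label ESC KD2 replicate 2 for Nhp2, 12.14 and 11.78 for Nop10, and 11.14 and 10.62 for Gar1 in the same arrays.

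In the box C/D class of snoRNPs, whose RNAs mostly guide ribose methylation, all 4 proteins fell in scrambled cells and in KD1 over 10 arrays. Their KD2 median was -0.61. Rrp9 read 9.85 and 9.63 in the RA KD1 arrays, 9.95 in RA KD2 replicate 1 and 9.52 and 9.42 in the RA scrambled arrays, against 11.25 and 10.86 in ESC KD1, 11.34 in ESC KD2 replicate 1 and 11.20 and 10.93 in ESC scrambled cells. Rrp9, the protein specific to the U3 particle that prepares the small subunit RNA, had the largest RA minus ESC difference of the 38 members in scrambled cells, with no overlap. Over 10 arrays it was -1.59 (SE 0.16, adjusted p = 5.22e-05), or 33.2% of the ESC signal, with -1.32 (SE 0.16, adjusted p = 0.000179) in KD1 and -1.39 in KD2. Over 12 arrays it missed the threshold in scrambled cells (adjusted p = 0.0517). Its displaced arrays read 10.94 under the label RA KD2 replicate 2 and 9.82 under the label ESC KD2 replicate 2.

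Nop58 stood at 11.40 and 11.37 in RA KD1, at 11.10 in RA KD2 replicate 1 and at 10.87 and 11.02 in RA scrambled cells, against 12.01 and 11.88, 11.83 and 11.99 and 11.78 in the ESC arrays of KD1, KD2 replicate 1 and scrambled cells. Nop58, a scaffold protein of the particle, differed by -0.56 in KD1, -0.74 in KD2 and -0.94 in scrambled cells, and its RA KD1 arrays were the highest RA arrays that were not displaced. Values of Nop56 were 12.30 and 12.34 (RA KD1), 12.44 (RA KD2 replicate 1) and 12.18 and 12.38 (RA scrambled), against 12.79 and 12.61 (ESC KD1), 12.82 (ESC KD2 replicate 1) and 12.86 and 12.54 (ESC scrambled). For its partner Nop56 the RA values lay just under the ESC values, with differences of -0.38 in KD1, -0.38 in KD2 and -0.42 in scrambled cells. Fbl read 11.61 and 11.24 in the RA KD1 arrays, 11.70 in RA KD2 replicate 1 and 11.52 and 11.37 in the RA scrambled arrays, against 12.17 and 11.89 in ESC KD1, 12.19 in ESC KD2 replicate 1 and 11.91 and 11.81 in ESC scrambled cells. Fbl encodes fibrillarin, the methyltransferase itself, and differed by -0.60 in KD1, -0.49 in KD2 and -0.41 in scrambled cells. Its other probe set gave -0.80 in KD1 and -0.98 in scrambled cells, where the brightest one gave -0.60 and -0.41. The displaced arrays read 11.72 under the label RA KD2 replicate 2 and 11.13 under the label ESC KD2 replicate 2 for Nop58, 12.51 and 12.44 for Nop56, and 11.99 and 11.44 for Fbl in the same arrays.

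The 7 nucleolar phosphoproteins and chaperones all fell in scrambled cells and in KD1 over 10 arrays, and 5 fell in KD2. Tcof1 read 10.24 and 10.05 in the RA KD1 arrays, 10.38 in RA KD2 replicate 1 and 9.79 and 9.95 in the RA scrambled arrays, against 11.23 and 10.95 in ESC KD1, 11.29 in ESC KD2 replicate 1 and 11.27 and 10.92 in ESC scrambled cells. Tcof1 encodes treacle, a cofactor of RNA polymerase I transcription, and its states did not overlap. Its difference was -1.22 (SE 0.15, adjusted p = 0.000201) in scrambled cells, -0.95 in KD1 and -0.91 in KD2. Nolc1 stood at 11.31 and 11.14 in RA KD1, at 11.33 in RA KD2 replicate 1 and at 10.95 and 11.03 in RA scrambled cells, against 12.05 and 11.76, 12.07 and 12.06 and 11.83 in the ESC arrays of KD1, KD2 replicate 1 and scrambled cells. Nolc1, a chaperone of snoRNPs, differed by -0.68 in KD1, -0.74 in KD2 and -0.95 in scrambled cells. Values of Grwd1 were 9.62 and 9.44 (RA KD1), 9.88 (RA KD2 replicate 1) and 9.42 and 9.51 (RA scrambled), against 10.61 and 10.29 (ESC KD1), 10.71 (ESC KD2 replicate 1) and 10.68 and 10.31 (ESC scrambled). Grwd1, a histone-binding protein with a role in ribosome assembly, differed by -0.93 in KD1, -0.82 in KD2 and -1.03 in scrambled cells.

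The abundant proteins nucleolin and nucleophosmin differed least in this role. Ncl had differences of -0.37 in KD1, -0.38 in KD2 and -0.49 in scrambled cells, and Npm1 of -0.46 in KD1, -0.39 in KD2 and -0.38 in scrambled cells, with Npm1 not called in KD2 (adjusted p = 0.108). Gnl3, which encodes nucleostemin, a GTP-binding protein of stem cell nucleoli, differed by -0.58 in KD1, -0.67 in KD2 and -0.82 in scrambled cells and missed the threshold in KD2 (adjusted p = 0.0522). Mybbp1a, a nucleolar binding partner of Myb, differed by -0.71 in KD1, -0.78 in KD2 and -0.78 in scrambled cells. The displaced arrays read 10.88 under the label RA KD2 replicate 2 and 10.27 under the label ESC KD2 replicate 2 for Tcof1, 11.65 and 11.24 for Nolc1, and 10.18 and 9.62 for Grwd1 in the same arrays.

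All 3 genes of RNA polymerase I and its initiation fell in each of the 3 lines over 10 arrays. Polr1b read 10.93 and 10.84 in the RA KD1 arrays, 11.10 in RA KD2 replicate 1 and 10.75 and 10.72 in the RA scrambled arrays, against 11.85 and 11.56 in ESC KD1, 12.03 in ESC KD2 replicate 1 and 12.10 and 11.72 in ESC scrambled cells. Polr1b, the subunit next in size to the largest, differed without overlap by -1.18 (SE 0.14, adjusted p = 0.000129) in scrambled cells, -0.82 in KD1 and -0.93 in KD2. Rrn3 stood at 11.73 and 11.71 in RA KD1, at 11.85 in RA KD2 replicate 1 and at 11.88 and 11.71 in RA scrambled cells, against 12.50 and 12.46, 12.57 and 12.53 and 12.49 in the ESC arrays of KD1, KD2 replicate 1 and scrambled cells. Rrn3, whose promoter with its pair of E-boxes is printed with the sequences, was at nearly the same level in all 5 ESC arrays and differed by -0.76 in KD1, -0.72 in KD2 and -0.71 in scrambled cells. Values of Polr1a were 10.52 and 10.38 (RA KD1), 10.61 (RA KD2 replicate 1) and 10.56 and 10.30 (RA scrambled), against 11.20 and 11.10 (ESC KD1), 11.35 (ESC KD2 replicate 1) and 11.31 and 10.94 (ESC scrambled). Polr1a, the largest subunit, differed by -0.70 in KD1, -0.74 in KD2 and -0.70 in scrambled cells. Displaced values were 11.52 under the label RA KD2 replicate 2 and 11.02 under the label ESC KD2 replicate 2 for Polr1b, 12.48 and 11.84 for Rrn3, and 10.74 and 10.35 for Polr1a in the same arrays.

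Of the 9 proteins of the small subunit processome and its maturation, all fell in scrambled cells, 8 in KD1 and 6 in KD2 over 10 arrays. Heatr1 read 10.57 and 10.29 in the RA KD1 arrays, 10.75 in RA KD2 replicate 1 and 10.46 and 10.30 in the RA scrambled arrays, against 11.73 and 11.57 in ESC KD1, 11.74 in ESC KD2 replicate 1 and 11.82 and 11.57 in ESC scrambled cells. Heatr1, a processome protein also needed for transcription of the ribosomal DNA, differed without overlap by -1.31 (SE 0.13, adjusted p = 5.57e-05) in scrambled cells, -1.22 in KD1 and -0.99 in KD2. Noc4l stood at 10.80 and 10.62 in RA KD1, at 10.86 in RA KD2 replicate 1 and at 10.33 and 10.55 in RA scrambled cells, against 11.58 and 11.36, 11.60 and 11.58 and 11.24 in the ESC arrays of KD1, KD2 replicate 1 and scrambled cells. Noc4l, which pairs with Nop14 in small subunit export, differed by -0.76 in KD1, -0.74 in KD2 and -0.97 in scrambled cells. Values of Wdr43 were 11.48 and 11.35 (RA KD1), 11.45 (RA KD2 replicate 1) and 11.16 and 11.23 (RA scrambled), against 12.14 and 11.95 (ESC KD1), 12.20 (ESC KD2 replicate 1) and 12.25 and 11.95 (ESC scrambled). Wdr43, a processome scaffold, differed by -0.63 in KD1, -0.75 in KD2 and -0.90 in scrambled cells.

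The other 6 had smaller differences in scrambled cells, between -0.81 for the processome protein Utp20 and -0.52 for the pre-rRNA processing factor Rcl1. Wdr75, a processome protein, differed by -0.61 in KD1, -0.79 in KD2 and -0.77 in scrambled cells, and Nop14, the partner of Noc4l, by -0.47 in KD1, -0.59 in KD2 and -0.78 in scrambled cells. Imp4, a protein of the U3 particle, was the exception in KD1, where its difference was -0.33 (SE 0.16, adjusted p = 0.134). Its RA KD1 arrays read 11.89 and 11.87, against 12.38 and 12.04 in ESC KD1, 11.38 and 11.58 in RA scrambled and 12.25 and 11.77 in ESC scrambled cells, so the RA KD1 values overlapped the ESC scrambled ones. Utp20, Bysl and Rcl1 were not called in KD2, where they stood at -0.57, -0.64 and -0.46. On the displaced arrays, values were 11.41 under the label RA KD2 replicate 2 and 10.58 under the label ESC KD2 replicate 2 for Heatr1, 11.25 and 10.79 for Noc4l, and 11.94 and 11.38 for Wdr43 in the same arrays.

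Of the 7 large subunit assembly factors, 6 fell in scrambled cells, 6 in KD1 and 5 in KD2 over 10 arrays. Rrp1b read 9.85 and 9.69 in the RA KD1 arrays, 10.06 in RA KD2 replicate 1 and 9.65 and 9.96 in the RA scrambled arrays, against 11.27 and 10.94 in ESC KD1, 11.22 in ESC KD2 replicate 1 and 11.30 and 10.91 in ESC scrambled cells. Rrp1b, a nucleolar protein, differed without overlap by -1.30 (SE 0.17, adjusted p = 0.000308) in scrambled cells, -1.34 (SE 0.17, adjusted p = 0.000293) in KD1 and -1.16 in KD2. Noc3l stood at 10.02 and 9.95 in RA KD1, at 10.29 in RA KD2 replicate 1 and at 10.00 and 10.18 in RA scrambled cells, against 11.18 and 10.84, 11.10 and 11.45 and 11.00 in the ESC arrays of KD1, KD2 replicate 1 and scrambled cells. Noc3l, a factor of early large subunit particles, differed by -1.02 in KD1, -0.81 in KD2 and -1.13 in scrambled cells.

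Pes1, Bop1 and Wdr12 form a complex that processes the large subunit RNA, and all 3 fell in each line over 10 arrays. Values of Wdr12 were 10.83 and 10.59 (RA KD1), 10.42 (RA KD2 replicate 1) and 10.11 and 10.26 (RA scrambled), against 11.69 and 11.37 (ESC KD1), 11.37 (ESC KD2 replicate 1) and 11.56 and 11.21 (ESC scrambled). Its RA KD1 arrays were the highest of the non-displaced RA arrays, and the differences were -0.82 in KD1, -0.95 in KD2 and -1.19 in scrambled cells. Bop1 read 10.42 and 10.21 in the RA KD1 arrays, 10.66 in RA KD2 replicate 1 and 10.11 and 10.23 in the RA scrambled arrays, against 11.54 and 11.12 in ESC KD1, 11.62 in ESC KD2 replicate 1 and 11.45 and 11.03 in ESC scrambled cells. The differences of Bop1 were -1.02 in KD1, -0.95 in KD2 and -1.07 in scrambled cells, and those of Pes1 were -0.82 in KD1, -0.81 in KD2 and -1.01 in scrambled cells. The other probe set of Wdr12 gave -0.65 in KD1 and -1.10 in scrambled cells. Nop2, a ribosomal RNA methyltransferase, differed by -0.55 in KD1, -0.53 in KD2 and -0.66 in scrambled cells. Nop16 had the smallest difference of the role and was called in no line, with -0.20 in KD1, -0.28 in KD2 and -0.34 in scrambled cells. The displaced arrays read 10.85 under the label RA KD2 replicate 2 and 10.12 under the label ESC KD2 replicate 2 for Rrp1b, 10.75 and 10.24 for Noc3l, 11.02 and 10.28 for Wdr12, and 11.12 and 10.48 for Bop1 in the same arrays.

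Both nucleolar RNA helicases fell in all 3 lines over 10 arrays. Ddx18 read 11.46 and 11.42 in the RA KD1 arrays, 11.55 in RA KD2 replicate 1 and 10.94 and 11.17 in the RA scrambled arrays, against 12.31 and 12.08 in ESC KD1, 12.36 in ESC KD2 replicate 1 and 12.27 and 11.97 in ESC scrambled cells. Ddx18 had the smallest adjusted p of the members in scrambled cells over 12 arrays, at -1.06 (SE 0.26, adjusted p = 0.0418), and its states did not overlap outside the displaced arrays, which read 12.13 under the label RA KD2 replicate 2 and 11.63 under the label ESC KD2 replicate 2. Its other probe set gave -0.86 in KD1 and -1.24 in scrambled cells, where the brightest one gave -0.76 and -1.06. Ddx21 stood at 11.48 and 11.30 in RA KD1, at 11.58 in RA KD2 replicate 1 and at 11.32 and 11.19 in RA scrambled cells, against 12.30 and 12.01, 12.38 and 12.35 and 12.07 in the ESC arrays of KD1, KD2 replicate 1 and scrambled cells. Ddx21, which acts in both transcription and processing of ribosomal RNA, differed by -0.76 in KD1, -0.80 in KD2 and -0.95 in scrambled cells, and its displaced arrays read 11.96 under the RA label and 11.45 under the ESC label.

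**Figure D3:**
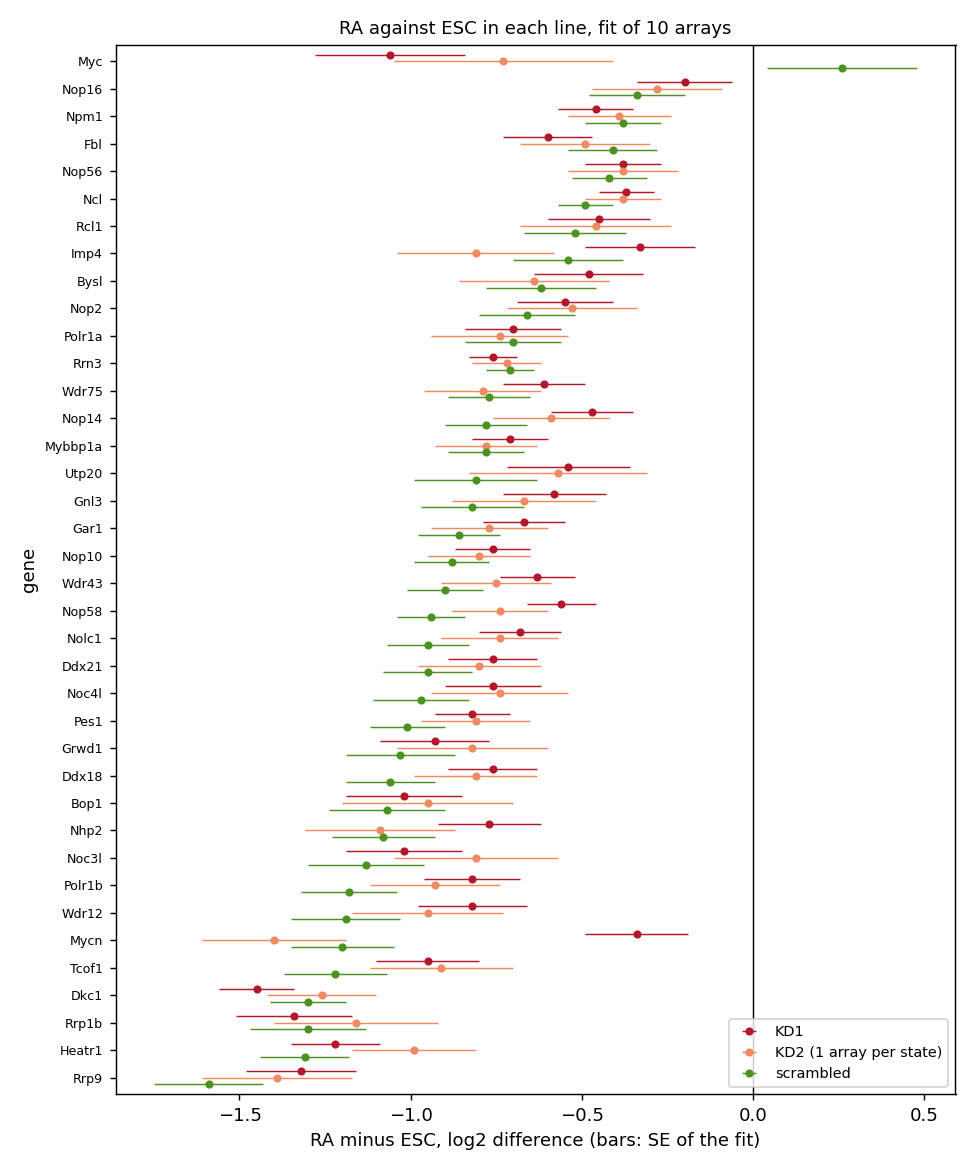
RA minus ESC log2 difference of each member from the fit of 10 arrays, with SE bars, for KD1, KD2 (1 array per state) and scrambled cells, ordered by the scrambled difference. Apart from Myc in scrambled cells, at 0.26, every point lies left of 0. Rrp9 is lowest in scrambled cells at -1.59, and the KD1 point of Mycn, at -0.34, stands apart from the other lines.

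The members also differed together between the 2 arrays of a group. In ESC scrambled cells, 37 of 38 members were lower in replicate 2 than in replicate 1, with a median difference of -0.30, while the median of all genes was -0.02. In ESC KD1 cells 36 were lower (median -0.23) and in RA KD1 cells 35 (median -0.15), while in RA scrambled cells 13 were lower (median 0.08). The KD2 groups, with the displaced arrays, had 2 lower in RA (median 0.44) and 38 lower in ESC (median -0.82). Outside the KD2 groups, these replicate differences are smaller than the RA minus ESC medians of -0.70 and -0.89 in KD1 and scrambled cells. The 38 members are thus not independent readings of an array.

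The knockdown lines were then compared with scrambled cells within each state. No member was called in any of these comparisons over 12 arrays by limma. In RA cells the median over members of the mean of both knockdown lines minus scrambled was 0.30, with 37 of 38 above 0, and 1 member reached an unadjusted p below 0.05, as did 12.9% of all genes, while 1.14% were called. In ESC cells it was -0.16, with 1 member and 6.5% of all genes under that p and 0.0953% of all genes called. Each line alone gave medians of 0.14 for KD1 in RA and -0.01 for KD1 in ESC, where 2.32% and 0.0652% of all genes were called. For KD2 they were 0.46 in RA and -0.30 in ESC, where 0.271% and 0.0853% were called. The interaction had a median of 0.48, and 0.0301% of all genes were called. The comparisons within a state share their scrambled arrays. At an unadjusted p below 0.05, KD1 had 0 members in RA and 1 in ESC, where 12.2% and 7.56% of all genes were. KD2 had 3 members in RA and 0 in ESC, against 13% and 10.3% of all genes, and the interaction had 1, against 10.1%. Each of these shares of the 38 members was below that of all genes.

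Without the displaced arrays the medians over both lines were closer to 0. In RA cells, 34 of 38 members were above scrambled cells in the mean of both lines, with a median of 0.19, and none was called, while 6.05% of all genes were. The lowest p belonged to the helicase Ddx18 at 0.44 (SE 0.12, adjusted p = 0.0667), followed by the snoRNP protein Nop58 at 0.29 (SE 0.09, adjusted p = 0.109) and by Tcof1 at 0.38 (SE 0.14, adjusted p = 0.174), and 8 of the 38 members had an unadjusted p below 0.05, as did 19.0% of all genes. In ESC cells the median was 0.06, with 28 of 38 above 0, and none was called, while 1.04% of all genes were. The member with the lowest p there was Myc, at 0.79 (SE 0.21, adjusted p = 0.143). The Myc difference was 1.22 without ESC scrambled replicate 1, the higher of the pair, and 0.36 without ESC scrambled replicate 2. Each of these fits keeps 1 ESC scrambled array, so the spread of that pair does not enter.

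In the fit of 10 arrays without a replicate block, KD1 in RA was the only knockdown comparison with called members. Mycn read 10.93 and 11.02 in RA KD1 arrays, against 10.17 and 10.59 in RA scrambled arrays, without overlap, and was higher by 0.59 (SE 0.15, adjusted p = 0.0313). Its difference was 0.38 without RA scrambled replicate 1 and 0.80 without RA scrambled replicate 2. Nop58 read 11.40 and 11.37 in RA KD1 arrays, against 10.87 and 11.02 in RA scrambled arrays, and was higher by 0.44 (SE 0.10, adjusted p = 0.0202). These are 2 of 38 members, where 12.1% of all genes were called in either direction, and the median over members was 0.14. Neither was called over 12 arrays, nor over 10 arrays without RA scrambled replicate 1, without RA KD1 replicate 1 or without RA KD1 replicate 2. When either ESC scrambled array was left out, 5 members were higher (Mycn, Nop58, Imp4, Wdr12 and Ddx18) and Myc was lower. Among all genes 6.4% were then higher and 8.4% lower. The labels do not say that a replicate number marks a shared day. A block of it over 10 arrays leaves 2 residual and 7.35 prior degrees of freedom, so its calls rest mostly on spread borrowed across genes. With the number as a block over 10 arrays, 14 of 38 members were called higher in RA knockdown cells, where 7.16% of all genes were, and 12 in KD1 alone, where 10.1% were.

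KD1 in ESC had a median of -0.01 over members, with 0 called and 1.92% of all genes called. KD2 in RA had a median of 0.24 (0 members and 0.963% of all genes called), and KD2 in ESC had 0.13 (0 members and 0.988% of all genes called). Members at an unadjusted p below 0.05 in these 3 comparisons numbered 2, 6 and 1 of 38, where 15.8%, 11.2% and 11.8% of all genes did. The interaction had a median of 0.15 over members, with 0 members and 1.89% of all genes called, and Myc was the 1 member at an unadjusted p below 0.05, where 13.1% of all genes were. Over 10 arrays, the member medians of these knockdown comparisons thus lay between -0.01 and 0.24, and those of RA against ESC between -0.89 and -0.70. Over 12 arrays the KD2 medians were 0.46 in RA, -0.30 in ESC and -0.15 for RA against ESC. The difference between the RA responses of the lines was tested only by the interaction over both knockdown lines.

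**Figure D4:**
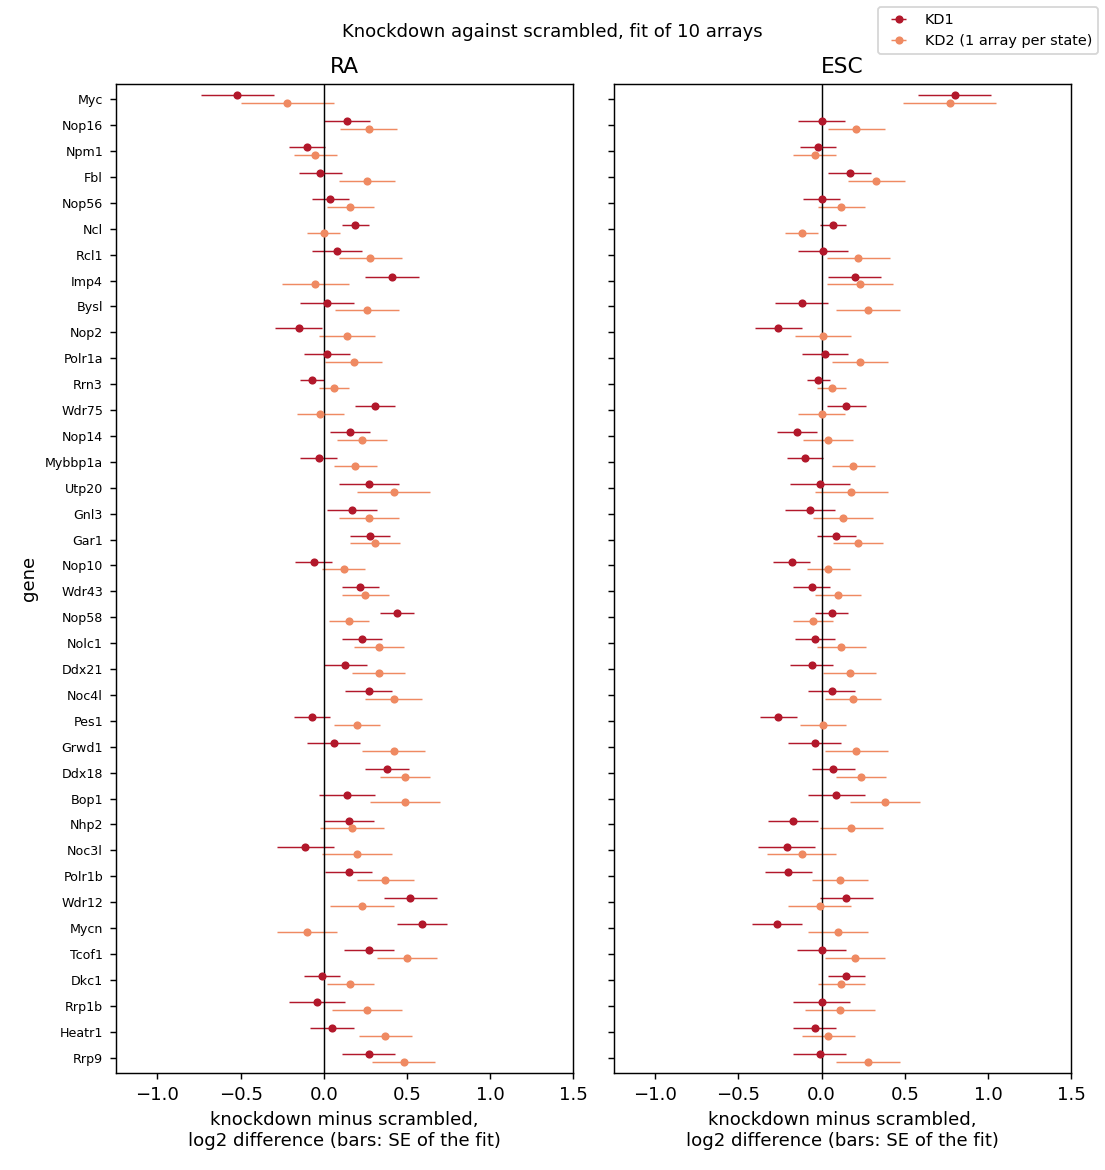
Knockdown minus scrambled log2 difference of each member from the fit of 10 arrays, with SE bars, in RA (left) and ESC (right), for KD1 and for KD2 (1 array per state). Most RA points lie right of 0 by less than 0.50. Mycn in RA KD1 is at 0.59, and Myc is at 0.80 and 0.77 in the ESC knockdown lines.

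Markers of other cell states moved with these comparisons. The median of 12 endoderm markers was 11.91 and 11.97 in RA KD1 arrays and 9.57 in RA KD2 replicate 1, against 8.31 and 8.53 in RA scrambled arrays, and 8 of the 12 rose in RA knockdown cells over 10 arrays (median 1.35), where 2.67% of all genes rose. By line, 10 of the 12 rose in KD1 (median 2.18), where 5.39% of all genes rose, and the KD2 median was 0.54. In ESC knockdown cells 6 of the 12 rose (median 0.48), where 0.537% of all genes rose. Over 12 arrays 1 of the 12 rose in RA and 0 in ESC knockdown cells. Among them Cubn, an uptake receptor of visceral endoderm, was higher by 3.35 (SE 0.12) and Lama1, a basement membrane laminin, by 2.74 (SE 0.10). Of 12 naive pluripotency markers, 2 rose in RA knockdown cells (Klf4 by 0.89 and Tfcp2l1 by 0.62), with a median of 0.20. In KD1 alone 3 rose and 2 fell (median -0.07), where 5.39% and 6.69% of all genes did. The KD2 median was 0.58. Klf4 read 10.45 and 10.56 in RA KD1 and 9.30 in RA KD2 replicate 1, against 8.87 and 9.15 in RA scrambled arrays. Nanog read 9.56 and 8.69 in RA KD1 and 10.90 in RA KD2 replicate 1, against 10.09 and 10.87 in RA scrambled arrays. Of 11 retinoic acid and Hox markers, 1 rose and 3 fell in RA knockdown cells, and of 10 fibroblast markers 1 rose and 3 fell. Among all genes 2.67% rose and 3.38% fell there. None of these 3 lists had a call over 12 arrays, and in ESC knockdown cells 1 naive pluripotency marker fell over 10 arrays. The part of these cell states in the members' differences was not tested.

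Other genes of the pathway were read from lists written from general knowledge, with earlier results of these data known. They are therefore not an independent check on the members. The counts of each list stand against the shares of all genes. Over 10 arrays, 20.8% of all genes fell in scrambled cells and 20.8% in KD1, and 21.8% and 20.3% rose. Over 12 arrays 5.66% and 4.26% fell, 8.14% and 7.02% rose, and none was called in KD2. Of 50 further ribosome assembly factors, 47 fell in scrambled cells over 10 arrays and 45 in KD1. Their medians were -0.88 in scrambled cells, -0.69 in KD1 and -0.75 in KD2. Over 12 arrays 14 fell in scrambled cells, 0 in KD1 and 0 in KD2. Lyar, a nucleolar zinc finger protein, fell by 1.52 log2 units (SE 0.14, adjusted p = 3.84e-05), with 10.20 and 10.10 in RA KD1, 10.40 in RA KD2 replicate 1 and 9.80 and 10.02 in RA scrambled arrays, against 11.49 and 11.14 in ESC KD1, 11.49 in ESC KD2 replicate 1 and 11.54 and 11.32 in ESC scrambled arrays. Mdn1, the giant ATPase that strips factors from large subunit precursors, fell by 1.62 in scrambled cells (adjusted p = 0.000143), and its adaptor Nle1 fell by 1.30 (adjusted p = 0.00022). A list of RNA polymerase I and its initiation factors had 11 measured genes, and it also holds the snoRNP assembly factor Znhit6 and Baz2a. All 11 fell in scrambled cells and 9 in KD1 over 10 arrays, and the KD2 median was -0.51. Taf1d, a subunit of the promoter factor of the polymerase, differed by -0.95 in scrambled cells (adjusted p = 3.45e-05). Znhit6 read 9.38 and 9.51 in RA scrambled arrays, against 10.67 and 10.40 in ESC scrambled arrays. Over 12 arrays 3 of the 11 fell in scrambled cells, 3 in KD1 and 0 in KD2.

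RNA polymerase III, which makes transfer RNA and the smallest ribosomal RNA, had members called in both directions. Of its 18 genes, 8 fell and 3 rose in scrambled cells over 10 arrays (median -0.22), with 9 and 4 in KD1 (median -0.24). In each of these lines 20.8% of all genes fell. The KD2 median was -0.40. The 3 that rose in scrambled cells are fewer than the 21.8% of all genes that did, and the 4 in KD1 are close to the 20.3% that did. Polr3g, the subunit form that is abundant in stem cells, fell by 1.32 (adjusted p = 9.42e-05), and Gtf3c1, a subunit of the transcription factor TFIIIC, rose by 0.88 (adjusted p = 0.0002). Of 54 cytosolic ribosomal proteins, 41 fell in scrambled cells and 41 in KD1 over 10 arrays, against 20.8% of all genes in each, and none was higher. Their medians were -0.27 in scrambled cells, -0.28 in KD1 and -0.20 in KD2. Rpl12 fell by 1.58 (adjusted p = 3.69e-05) and Rpl30 fell by 1.09 (adjusted p = 0.000121). Ribosomal protein genes have many processed copies in the genome, so a probe set can read more than its own gene. Over 12 arrays 3 genes of RNA polymerase III fell and 1 rose in scrambled cells, and 1 fell and 1 rose in KD1. Ribosomal proteins then numbered 5 fallen in scrambled cells and 5 in KD1, and neither list had a call in KD2.

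Among 20 partners and regulators of Myc, 8 fell and 4 rose in scrambled cells over 10 arrays (median -0.21), where 20.8% and 21.8% of all genes did. In KD1 7 fell and 2 rose, where 20.8% and 20.3% did, and the KD2 median was -0.22. The 4 that rose in scrambled cells are close to the share of all genes that did. Mxd4, a Max partner that represses Myc targets, read 10.43 and 10.47 in RA KD1, 10.14 in RA KD2 replicate 1 and 10.72 and 10.65 in RA scrambled arrays, against 8.25 and 8.24 in ESC KD1, 8.26 in ESC KD2 replicate 1 and 8.23 and 8.38 in ESC scrambled arrays. It rose by 2.38 in scrambled cells (SE 0.11, adjusted p = 1.24e-06), and over 12 arrays it passed as well (adjusted p = 0.0465). Usp28, a deubiquitinase that stabilises Myc, fell by 1.99 (adjusted p = 6.49e-06), and Mga, another Max partner, fell by 1.01 (adjusted p = 0.000108). Over 12 arrays 3 of the 20 fell and 1 rose in scrambled cells, 1 fell in KD1 and 0 were called in KD2.

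Of 38 known Myc targets outside the nucleolus, 31 fell and 1 rose in scrambled cells over 10 arrays (median -0.56), where 20.8% and 21.8% of all genes did. In KD1 28 fell and 2 rose (median -0.55), where 20.8% and 20.3% of all genes did, and the KD2 median was -0.54. The 38 include Set, the targeted gene, read here by the brighter of the dim probe sets annotated to it alone. Set read 6.68 and 6.45 in RA scrambled arrays, against 8.82 and 8.39 in ESC scrambled arrays. Bcat1, a branched-chain amino acid transaminase, fell by 1.85 in scrambled cells (adjusted p = 3.17e-06). Shmt1, an enzyme of folate metabolism, fell by 1.79 (adjusted p = 1.25e-05), and the cyclin gene Ccnd2 rose by 3.34 (adjusted p = 0.00237). Ccnd2 varied between replicates in ESC, with 12.08 and 12.35 in RA scrambled arrays, against 10.00 and 7.75 in ESC scrambled arrays. Bcat1 was also higher in RA knockdown than in RA scrambled cells, by 0.83 (adjusted p = 0.00234), and so was Ldha, lactate dehydrogenase A, with 12.95 and 12.95 in RA KD1 and 12.91 in RA KD2 replicate 1, against 12.27 and 12.24 in RA scrambled arrays. Ldha was called there over 10 arrays (0.67, adjusted p = 7.34e-05) and over 12 (0.76, adjusted p = 0.0181), and its interaction passed over 10 arrays (0.77, adjusted p = 0.00113). Of 9 genes of nucleolar stress and p53 sensing, 4 fell and 2 rose in scrambled cells over 10 arrays (median -0.13). Among all genes 20.8% fell and 21.8% rose there, so the risen ones were again close to the share of all genes that rose. Cdkn2a, whose alternative product restrains Mdm2 in the nucleolus, rose by 2.00 in scrambled RA cells against ESC (adjusted p = 4.65e-06). In RA knockdown it fell by 0.61 against RA scrambled cells (adjusted p = 0.019), and over 12 arrays this was not called. Over 12 arrays 11 of the 38 Myc targets fell in scrambled cells, 6 fell and 1 rose in KD1 and 0 were called in KD2. Of the 9 stress genes 1 fell and 1 rose in scrambled cells, 1 rose in KD1 and 0 were called in KD2.

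**Figure D5:**
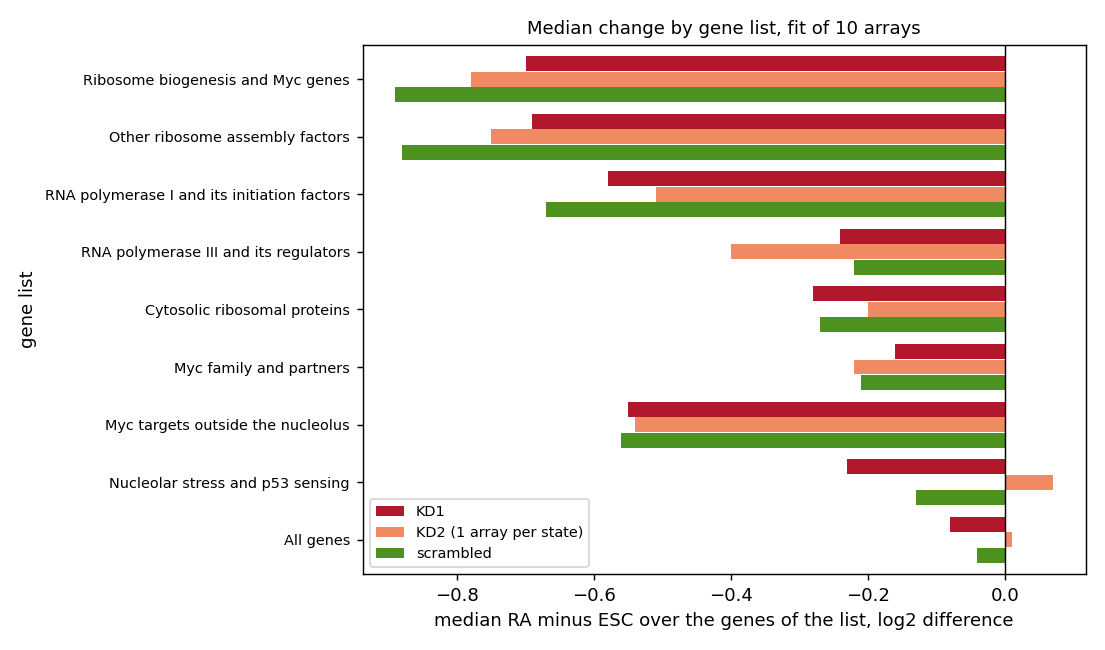
Median RA minus ESC log2 difference over the members and over each gene list, from the fit of 10 arrays, for KD1, KD2 (1 array per state) and scrambled cells. The members and the other assembly factors have medians of -0.69 to -0.89, the ribosomal proteins of -0.20 to -0.28, and all genes lie between -0.08 and 0.01.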

How the data were processed

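The study measured total RNA of 12 samples on a 1-colour Affymetrix gene array, with biotinylated cRNA made from 300 ng of RNA per the labels' protocols. The deposited values are on the log2 scale. The authors used RMA for them, as the submitters' processing notes name it, and its version is not given in the sources used here. That method corrects background, normalizes between arrays and gives 1 value per probe set. Of 35556 probe sets, 23410 were in the platform annotation, 21789 with 1 symbol. The brightest probe set with 1 symbol stood for each of 19938 genes, with no filter on dim genes.

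Groups came from the sample labels. Limma 3.58.1 in R 4.3.3 (lmFit and eBayes with an intensity trend) fitted 6 groups to 12 arrays, with 6 residual and 2.76 prior degrees of freedom, and 10 arrays left 4 and 4.93. With a replicate block they were 4 and 2.43 over 12 arrays and 2 and 7.35 over 10. Benjamini-Hochberg adjustment ran over all genes. The fit was also run on simulated arrays with independent noise per gene and no displaced arrays. That run does not cover displaced arrays or genes that shift together, as in these data. The number of arrays, 2 per group, limits precision. RMA makes array distributions alike, so a change shared by all genes would not be seen.

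Alternatives were leaving out the displaced arrays, a replicate block, quantile normalization, median centring, no trend, only genes above the median value of 7.22, the mean over probe sets, and each array left out. Values on every array are given for Myc, Mycn and, per role, up to 3 members with the largest RA against ESC difference in scrambled cells and up to 3 with the largest knockdown difference in RA, and for members called in a knockdown comparison. Each list names up to 4 called genes per comparison, from among those with the largest differences. The other members are given by their differences or by their role's range. Array values of Imp4 and of list genes, and the promoters shown, were chosen after being seen. The members and lists were chosen with earlier results of these data known. Promoters came from RefSeq (GRCm38.p6). Figures were drawn with matplotlib 3.10.9.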

Additional observations from a re-analysis of the deposited data

How the results depend on the processing

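Counts of members are given as lower in RA unless stated. For RA against ESC in scrambled cells the count was 13 over 12 arrays (5.66%) and 36 without the displaced arrays (20.8%). It was 36 with a replicate block within each state (17.0%), 23 with dim genes left out (7.64%) and 37 with 10 arrays and the block (24.1%). With single arrays left out of the 12 it moved down and up together with the share of all genes. Myc reached 0.69 over 10 arrays without ESC scrambled replicate 1. In KD1 (2) it was 35 without the displaced arrays, 37 with the block, 5 after quantile normalization, 6 with dim genes left out, 38 with 10 arrays and the block, and 0 to 36 with single arrays left out. In KD2 (0) it was 28 without the displaced arrays, 38 with 10 arrays and the block, and 0 to 33. In scrambled cells quantile normalization gave 17 (7.03%), centring 9 (4.74%) and no trend 9 (5.03%).

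The replicate numbers carry no stated day or batch. Replicate differences correlated between groups from 0.141 to 0.633 within a state and from -0.864 to 0.105 between states, which includes the displaced arrays. With 2 replicates a group and no stated day, this is a hint of a shared effect within a state and does not establish pairing. The block on 12 arrays called no member in a knockdown comparison. With 10 arrays and the block, knockdown cells had 14 members higher in RA (0 without the block), where 7.16% of all genes were, and 1 in ESC (Myc), where 3.45% were. KD1 had 12 higher and 1 lower (Myc) in RA, against 10.1% and 13.9% of all genes, and 1 higher (Myc) and 1 lower (Nop2) in ESC, against 3.99% and 6.53%. KD2 had 1 higher (Ddx18) in RA, against 1.99%, and the interaction had 2 higher (Nop58 and Polr1b) and 1 lower (Myc), against 3.21% and 5.4%. Crossing the KD2 numbers called 0 higher and 0 lower in the knockdown comparisons.

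With single arrays left out, KD1 in RA (2 higher over 10 arrays) ranged from 0 to 5 higher and 0 to 1 lower. The mean of both lines ranged from 0 to 1 higher and 0 to 1 lower in RA, where Ddx18 was higher and Myc lower without either ESC scrambled array. In ESC, for either line or their mean, and in the interaction, calls appeared only for Myc and only with an ESC scrambled array left out. That leaves 1 array in the group and takes the spread of the pair out of the fit.

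Some medians near 0 changed sign. In ESC, the median of both lines (-0.16) was 0.06 without the displaced arrays and -0.37 to 0.23 with single arrays left out. That of KD1 (-0.01) was 0.01 after quantile normalization, 0.00 after centring and -0.16 to 0.13. That of KD2 (-0.30) was 0.13 without the displaced arrays, 0.02 with 10 arrays and the block, and -0.69 to 0.31. The KD2 median of RA against ESC (-0.15) ranged from -0.78 to 0.28, and the interaction median (0.48) from -0.01 to 0.71. Myc in scrambled cells (0.26) was -0.01 with the block, -0.05 with 10 arrays and the block, and -0.17 to 0.69 with single arrays left out. The cause of these changes was not tested.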
